A study of Mus musculus with 3 samples.

Results

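Alveolar macrophages, the resident phagocytes of the airspace, were chosen by their own transcripts, as the cells with at least 3 UMIs (unique molecular identifiers, 1 per captured transcript) of Marco and Siglecf together. Marco encodes a scavenger receptor and Siglecf a sialic acid-binding lectin by which these cells are sorted. A cell also had to hold at most 4 UMIs of C1qa, C1qb and C1qc together, at most 2 of Ecm1, at most 1 of Cd3d, Cd3e and Cd3g, at most 1 of Epcam and Cdh5, and at most 2 of the cycling genes Mki67, Top2a, Cdk1, Birc5 and Ccnb2. Of 12458 cells past the limits on depth and mitochondrial RNA, 853 met the rule. They were 7 of 5137 cells in PPARg-/- tumour, 403 of 4374 in WT tumour and 443 of 2947 in WT healthy. The members were thus selected on measured values, so the levels of the rule's genes are descriptions and support nothing, and the markers that accompany them are not independent of the rule.

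Alveolar macrophages clear surfactant, inhaled particles and dying cells. They mature around birth under GM-CSF and TGF-beta, which together induce PPARγ, a lipid-activated nuclear receptor that drives the genes for lipid uptake, storage and breakdown. Mice that lack PPARγ in myeloid cells are known for foamy, lipid-laden alveolar macrophages. In the mouse these cells are further known for Chil3, a chitinase-like protein, for the eosinophil-associated ribonucleases Ear1 and Ear2, and for Car4, a carbonic anhydrase.

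The 3 groups were mice of 16-20 weeks with the transgenes Ccsp-rtTA and TetO-EGFRL858R, a pair that switches on a mutant EGF receptor in lung epithelium under doxycycline, and all were fed chow with 625 ppm doxycycline. PPARg-/- tumour mice carried Pparg fl/fl and Csf1rCre in addition, WT tumour mice Pparg fl/fl without Cre, and WT healthy mice neither. Csf1rCre acts in monocytes and macrophages in general, not in alveolar macrophages alone. The labels do not say how the WT healthy mice, on the same transgenes and chow, were kept free of tumours. Each group was 1 library of cells pooled from 3 mice, in which sorted CD45+CD11c+SigF+ alveolar macrophages, CD45+CD11b+Ly6G- macrophages, CD45+CD3+ T cells and CD45-EPCAM+ epithelial cells were mixed in equal parts. With 1 library a group no test between groups was possible. The 95% intervals printed on ratios cover the counting of UMIs and nothing else. Those printed on shares of cells cover the counting of cells, taken as independent draws within 1 library. Neither kind covers differences between mice or libraries.

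The libraries held 44548318 UMIs in PPARg-/- tumour, 46148658 in WT tumour and 30454790 in WT healthy, of which the chosen cells held 97602, 6449020 and 6010684 UMIs in the same order. Their medians per cell were 12599 UMIs in PPARg-/- tumour, 15518 in WT tumour and 13059 in WT healthy, with 8.21%, 6.31% and 5.97% of UMIs from mitochondrial genes in that order. Any 2 libraries shared 4 to 6 cell barcodes, and 1 barcode belonged to a chosen cell in both WT tumour and WT healthy. The libraries also stood apart by sex. Xist, transcribed from the inactive X of females, was at 0 UMIs in the chosen cells of PPARg-/- tumour and WT tumour and at 1400.2 CPM (UMIs per 1000000 UMIs of the chosen cells) in WT healthy, whereas the Y-linked Ddx3y was at 71.7, 86.4 and 0 CPM in that order. The labels say that both sexes were used about equally. Tumour, sex and the floxed Pparg alleles therefore cannot be told apart between WT tumour and WT healthy, and no library of a group remained when its only one was set aside.

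The cell counts themselves differed most in PPARg-/- tumour. Macrophages were set beside one another by 3 gates drawn on raw UMIs: the chosen cells, cells with at least 5 C1q UMIs (C1q macrophages), and cells that also held at least 3 UMIs of Ecm1 (Ecm1 macrophages). The chosen cells made up 0.625% of the 1120 cells in these gates in PPARg-/- tumour (95% exact binomial interval 0.252% to 1.28%), 66.2% of 609 in WT tumour (62.3% to 69.9%) and 89.5% of 495 in WT healthy (86.5% to 92.1%). Ecm1 macrophages numbered 1004 in PPARg-/- tumour, 25 in WT tumour and 12 in WT healthy. C1q macrophages numbered 109, 181 and 40 in that order. The sort and the mixing of its populations set how many macrophages entered each library, so these shares describe the sequenced cells and not the lung. The rule needs Marco and Siglecf transcripts, so a cell that made less of both could not be counted. Among cells within all the other limits but with fewer Marco and Siglecf UMIs, 6 had 2 UMIs and 8 had 1 UMI in PPARg-/- tumour, 91 and 153 in WT tumour, and 71 and 71 in WT healthy.

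**Figure D1:**
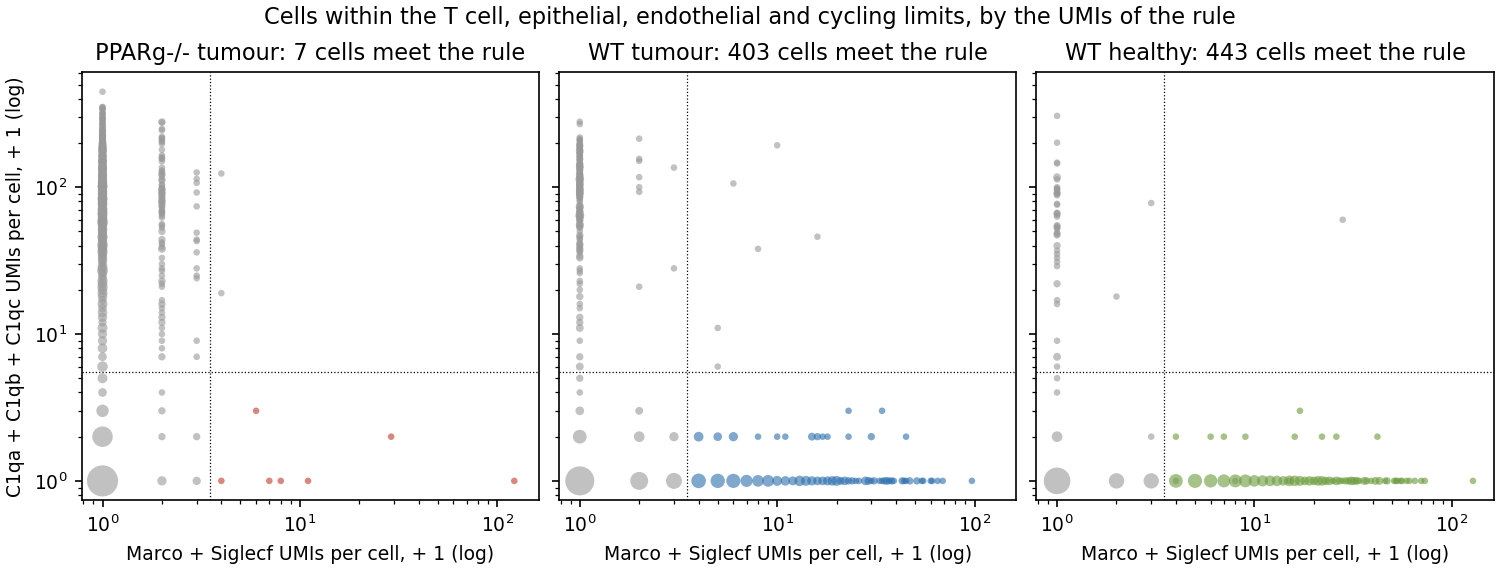
Each point stands for all cells with the same pair of values, within the T cell, epithelial, endothelial and cycling limits, and is larger for more cells. Marco and Siglecf UMIs per cell are on the horizontal axis and C1qa, C1qb and C1qc UMIs on the vertical axis, both plus 1 on log axes. There is 1 panel per library, with dotted lines at the limits of the rule. The chosen cells are coloured: 7 in PPARg-/- tumour, 403 in WT tumour and 443 in WT healthy.

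The limits removed cells unevenly. Of the 25, 648 and 774 cells with at least 3 Marco and Siglecf UMIs in PPARg-/- tumour, WT tumour and WT healthy, the limit on Epcam and Cdh5 was exceeded by 14, 173 and 267, more than any other limit in each library. The C1q limit was exceeded by 3, 9 and 2 cells. Cells set aside by the Epcam and Cdh5 limit alone numbered 10 in PPARg-/- tumour, 143 in WT tumour and 220 in WT healthy, and read as macrophages in their main markers. Their Chil3 was at 10305 CPM in PPARg-/- tumour, 10425 CPM in WT tumour and 13713 CPM in WT healthy, and their Ptprc, the CD45 gene, at 991, 1023 and 954 CPM. Epcam, the epithelial adhesion gene, was at 308, 204 and 221 CPM in these cells against 20.5, 17.8 and 24.5 CPM in the chosen ones. The keratin gene Krt8 was at 0, 50.8 and 0.605 CPM in them, and the surfactant gene Sftpc at 80.4, 2003 and 420.5 CPM, so that epithelial RNA came with the WT tumour cells set aside more than with the others. Scrublet, a doublet caller, marked 0, 3 and 4 of the chosen cells in PPARg-/- tumour, WT tumour and WT healthy. Cells at 2 Marco and Siglecf UMIs, just outside the rule, had Chil3 at 12269 CPM in WT tumour and 11919 CPM in WT healthy, and those at 3 UMIs, just inside it, 12004 and 12353 CPM in that order.

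The label was checked against marker genes that the rule did not use. Chil3 stood at 8227 CPM in PPARg-/- tumour, 12439 CPM in WT tumour and 12624 CPM in WT healthy. It had a UMI in every chosen cell of each library. Ear1 was read at 2367, 1979 and 1470.4 CPM in the same order, and Car4 at 471, 974 and 416 CPM. Plet1, a surface protein of alveolar macrophages, was at 1301, 1231 and 986 CPM. T cells of the same libraries, which should lack these genes, had Ear1 at 59.3, 28.4 and 16.1 CPM and Car4 at 2.19, 39.0 and 4.81 CPM. Chil3 did not part the PPARg-/- tumour macrophages, since the Ecm1 macrophages of that library held 10452 CPM of it. Car4 did, at 11.4 CPM in those Ecm1 macrophages.

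Summed markers of other cells ran from 0 to 540.2 CPM in the chosen cells, the classical monocyte list aside. Of 10 interstitial macrophage markers, 6, 8 and 8 had a UMI in PPARg-/- tumour, WT tumour and WT healthy, with a summed level of 123, 83.1 and 50.2 CPM, and the defining genes Folr2 and Cd163 were at 0 in all of them. The 7 markers of dendritic cells summed to 0, 7.75 and 10.5 CPM, the 6 of T cells to 10.2, 4.81 and 2.66 CPM, and all 5 eosinophil markers were at 0. Neutrophil markers summed to 277, 84.7 and 59.6 CPM, with Ly6g at 0 throughout. The first of these, on 27 UMIs, was above the 220 CPM of Ecm1 macrophages and the 140 CPM of T cells in PPARg-/- tumour. AT2 epithelial markers summed to 92.2, 232 and 48.1 CPM, and were highest in WT tumour. Club cell markers summed to 0, 35.5 and 83.2 CPM, B cell markers to 0, 0.465 and 3.66 CPM, NK cell markers to 10.2, 0.465 and 14.1 CPM and endothelial markers to 82.0, 76.1 and 21.8 CPM. Nonclassical monocyte markers summed to 338, 354 and 540.2 CPM, against 680, 505 and 532 CPM in T cells. The classical monocyte list was dominated by Chil3. The part of these markers in the comparisons was not tested.

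**Figure D2:**
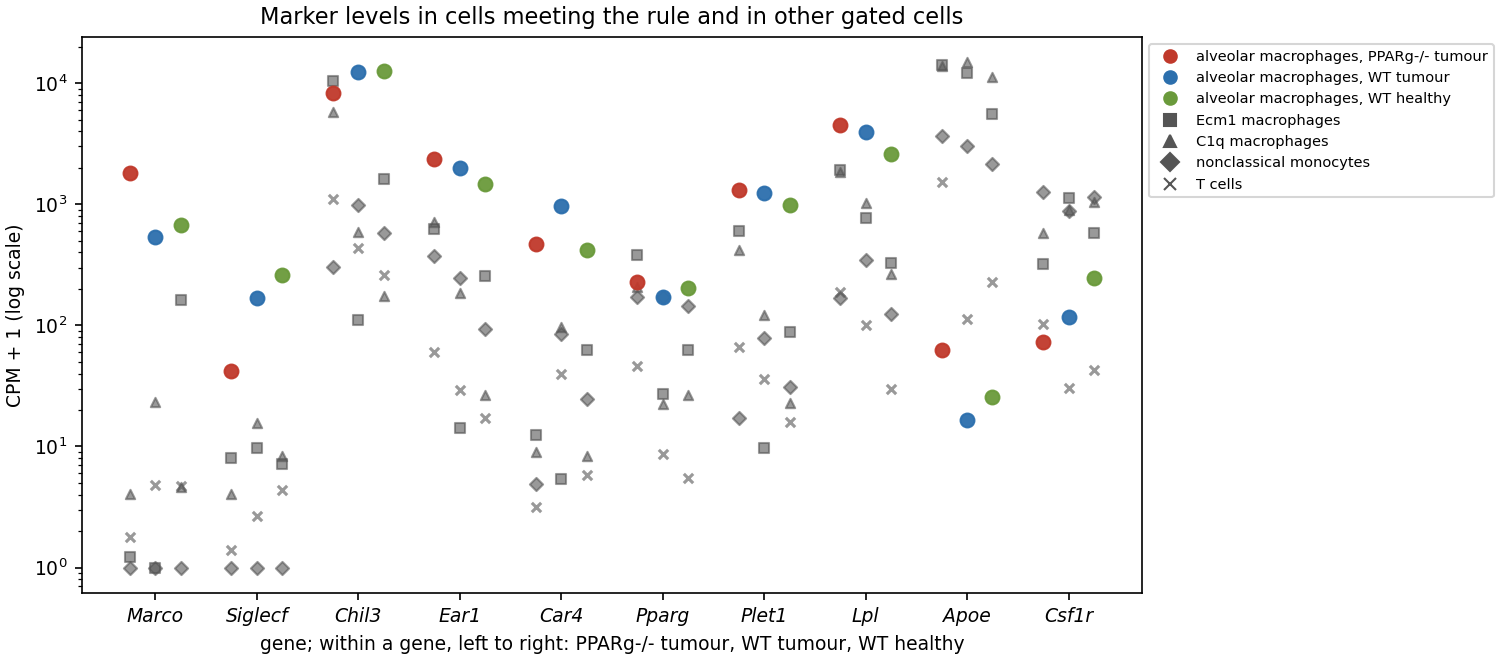
The level of 10 genes, as CPM plus 1 on a log axis, in alveolar macrophages, other macrophage gates, nonclassical monocytes and T cells of each library. Car4 was at 471 CPM in the PPARg-/- tumour alveolar macrophages against 11.4 CPM in the Ecm1 macrophages of that library, whereas Chil3 was high in both.

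The gene aimed at by the knockout was read in all 7 chosen cells of PPARg-/- tumour. Pparg, on the plus strand of chromosome 6 at 115360951 to 115490399 (GRCm38), stood at 225 CPM in PPARg-/- tumour, 170 CPM in WT tumour and 202 CPM in WT healthy. The log2 ratio of PPARg-/- tumour over WT tumour was 0.41 (95% interval -0.27 to 1.01), and that of WT tumour over WT healthy was -0.25 (-0.37 to -0.13). The kit reads the 3′ end of a transcript and the floxed exons are not named in the labels, so this level checks neither the deletion nor its absence. Csf2ra and Csf2rb, the chains of the GM-CSF receptor, were at 256 and 318 CPM in PPARg-/- tumour, 246 and 360.4 CPM in WT tumour, and 273 and 332 CPM in WT healthy. Csf1r, whose promoter drives the Cre, was at 71.7 CPM in PPARg-/- tumour, 116 CPM in WT tumour and 244 CPM in WT healthy, below the 1267, 883 and 1141 CPM of nonclassical monocytes in these libraries.

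WT tumour was first set over WT healthy, both without Cre. In this comparison tumour, sex and the floxed Pparg alleles cannot be told apart. To be counted, a gene needed a ratio of at least 1.5-fold either way, an interval that left out 1 and at least 20 UMIs over both libraries. This ranks genes by size and tests nothing. Of 10634 genes measured, 711 were higher in WT tumour (6.69%) and 1620 lower (15.2%), 21.9% in all. The median log2 ratio of all measured genes was -0.16. When the libraries were scaled by that shift instead, the split was 1033 higher and 1027 lower, so that the excess of lower genes depended on the scaling. List counts and medians are to be read against these shares and this shift.

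Carriers of fatty acids differed in both directions. Fabp5 and Fabp4, which bind fatty acids in the cytosol, were at 2913 and 525 CPM in WT tumour against 504 and 99.3 CPM in WT healthy, log2 ratios of 2.53 (2.48 to 2.59) and 2.40 (2.28 to 2.53). Fabp1, the liver type of the same family, was at 184 CPM against 704 CPM, a log2 ratio of -1.93 (-2.03 to -1.84). In cells thinned to 2000 UMIs each, Fabp5 was found in 91.3% of WT tumour cells (88.1% to 93.9%) and 45.5% of WT healthy cells (40.8% to 50.2%), with 11.8% and 4.49% in T cells as background. Without thinning the shares were 99.3% and 85.1%. Fabp1 was found in 30.8% and 59.0% of thinned cells. Storage genes were lower, as Fabp1 was: Cidec, which fuses lipid droplets, was at 44.8 CPM in WT tumour cells against 264 CPM in WT healthy cells, the lipid droplet coat gene Plin2 at 596 against 1021 CPM and the fatty acid translocase Cd36 at 73.5 against 321 CPM. Lpl, which releases fatty acids from lipoproteins, and Mgll, which cleaves monoglycerides, were higher, at 3977 against 2600 CPM and 440.4 against 220.4 CPM. Over the 19 measured carrier and droplet genes 5 were higher and 6 lower (median log2 ratio 0.05). The 17 PPARG target genes divided likewise, 3 higher and 5 lower (median -0.18, at the median of all genes).

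The identity genes of alveolar macrophages divided as well. Of 18 measured members without the rule genes, 5 were higher (Fabp4, Ear10, Car4, Ctsk and Lpl) and 4 lower (Krt79, Cidec, Fabp1 and Krt19). Krt79 (chromosome 15, 101929332 to 101940324, minus strand), a keratin gene, was at 32.3 CPM in WT tumour and 464 CPM in WT healthy, a log2 ratio of -3.85 (-4.06 to -3.64). It was found in 4.71% of thinned WT tumour cells and 52.0% of thinned WT healthy ones. Krt19 was at 128 against 478 CPM. Acaa1b, a peroxisomal thiolase of fatty acid oxidation, went the same way at 20.3 against 368 CPM (-4.18, -4.44 to -3.92), while Acaa1a, a close copy with which it could share reads, was at 177 against 153 CPM. Of 19 genes of fatty acid oxidation, Acaa1b and Ehhadh were lower and 0 were higher, with a median of -0.04.

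**Figure D3:**
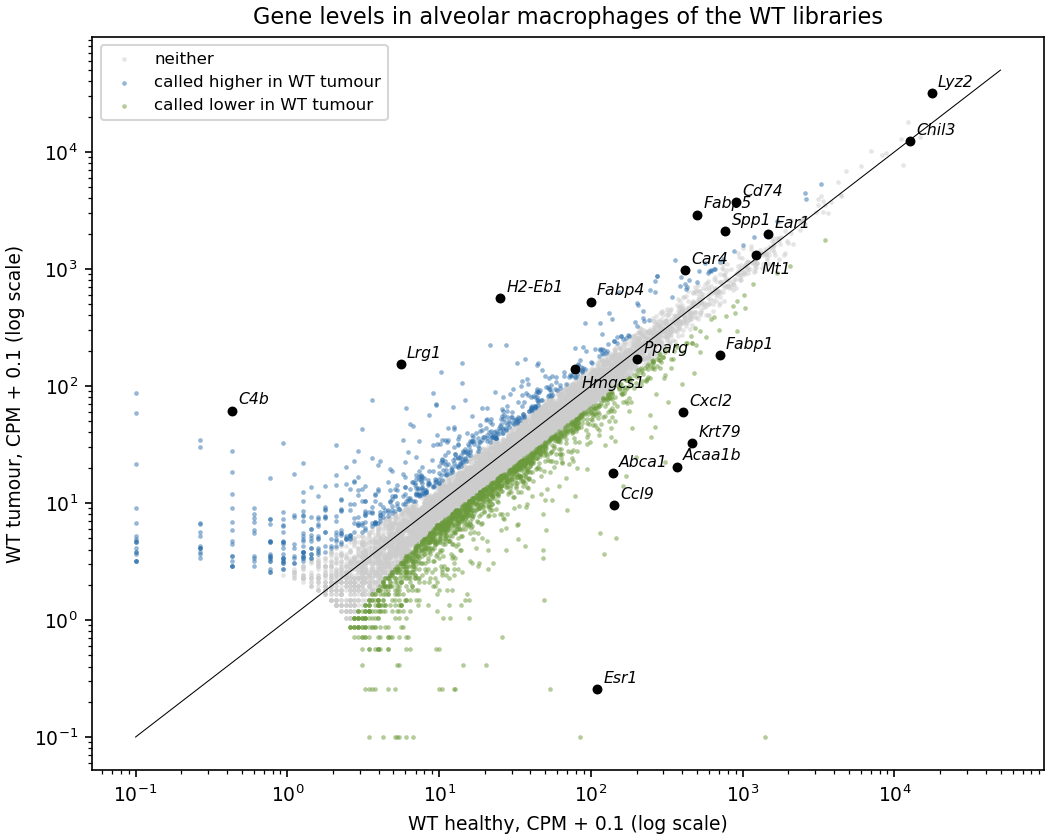
The level of each measured gene in WT tumour (vertical axis) and WT healthy (horizontal axis) alveolar macrophages, as CPM plus 0.1 on log axes, with named genes labelled. Fabp5 at 2913 against 504 CPM and Krt79 at 32.3 against 464 CPM lie on opposite sides of the line of equal levels.

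Cholesterol synthesis genes stood higher in WT tumour, with all 19 measured ones at a ratio above 1. Of these 15 were counted as higher in WT tumour and 0 lower, and the median of their log2 ratios was 0.99. Sqle, which oxidises squalene, was at 54.7 CPM in WT tumour cells against 16.5 CPM in WT healthy cells (1.73, 1.41 to 2.07). The levels were low: after thinning a Sqle UMI was found in 11.2% of WT tumour cells (8.26% to 14.7%) and 3.17% of WT healthy cells (1.74% to 5.26%), with 1.56% and 1.09% in T cells. Idi1, which acts on isopentenyl diphosphate, was at 94.7 against 30.4 CPM. Mylip, a ubiquitin ligase, was lower at 27.8 against 81.2 CPM (-1.55, -1.80 to -1.30). It belongs to 7 genes of sterol sensing and uptake, of which 3 were higher and 1 lower (median 0.36). Abca1, which exports cholesterol, was at 17.8 CPM in WT tumour cells against 140 CPM in WT healthy cells (-2.97, -3.26 to -2.69), and its partner Abcg1 at 931 against 1672 CPM. Of 11 efflux and esterification genes 5 were lower and 0 higher, with a median of -0.40. Lysosomal acid lipase, Lipa, which frees cholesterol from its esters, was at 1115 against 566 CPM, 1 of 2 higher genes among 16 of lysosomal lipid breakdown.

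The genes of cholesterol synthesis are known to carry sterol response elements, to which SREBP factors bind. Of the 19 genes, 14 had a promoter in the RefSeq table (GRCm38.p6), and 1 of these held the letters TCACNCCAC on either strand in the window of 250 bases before to 50 after the start (7.14%), against 388 of all 27025 genes (1.44%). It was Hmgcs1, the synthase at the entry of the pathway, at 140 CPM in WT tumour cells against 78.5 CPM in WT healthy cells. The 250 bases before its start, chr13:119690101-119690350, plus strand, are shown with the match in capitals, 137 bases before the start. A match is not a site of binding, and the other genes lack only these letters in this window.
Hmgcs1: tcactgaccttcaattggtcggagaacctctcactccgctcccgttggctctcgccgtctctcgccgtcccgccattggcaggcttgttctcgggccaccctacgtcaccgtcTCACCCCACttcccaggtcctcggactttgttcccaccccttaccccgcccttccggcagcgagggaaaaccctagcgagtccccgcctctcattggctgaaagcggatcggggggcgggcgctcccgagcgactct

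Antigen presentation by MHC class II was higher, in 6 of 9 measured genes with 0 lower and a median log2 ratio of 1.23. Cd74, the invariant chain that guides class II molecules, was at 3723 CPM in WT tumour cells against 908 CPM in WT healthy cells, and H2-Aa, an antigen-presenting chain, at 1202 against 357 CPM. The share of cells differed as well as the level. Cd74 was found in 91.8% of thinned WT tumour cells and 40.5% of thinned WT healthy cells, with 20.0% and 5.95% in T cells. H2-Eb1 (chromosome 17, 34305867 to 34316674, plus strand) was found in 50.9% of WT tumour cells (45.9% to 55.9%) and 2.49% of WT healthy cells (1.25% to 4.41%). The T cells had 8.17% and 1.46%, and the WT healthy share, whose interval holds that of its T cells, is read as background. A single WT healthy cell held 51.7% of that library's H2-Eb1 UMIs. The class I list was level by comparison, with 2 of 13 higher, among them B2m, the shared light chain, at 4459 against 2576 CPM, and a median of -0.07. Of 8 genes in the list of ligands that steer T cells 4 were lower, among them Cd86 at 7.75 against 23.0 CPM and Vsir at 68.2 against 115 CPM. In the same list 1 was higher, Havcr2, which encodes a receptor and not a ligand. The checkpoint ligand Cd274, which encodes PD-L1, was at 178 against 168 CPM.

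**Figure D4:**
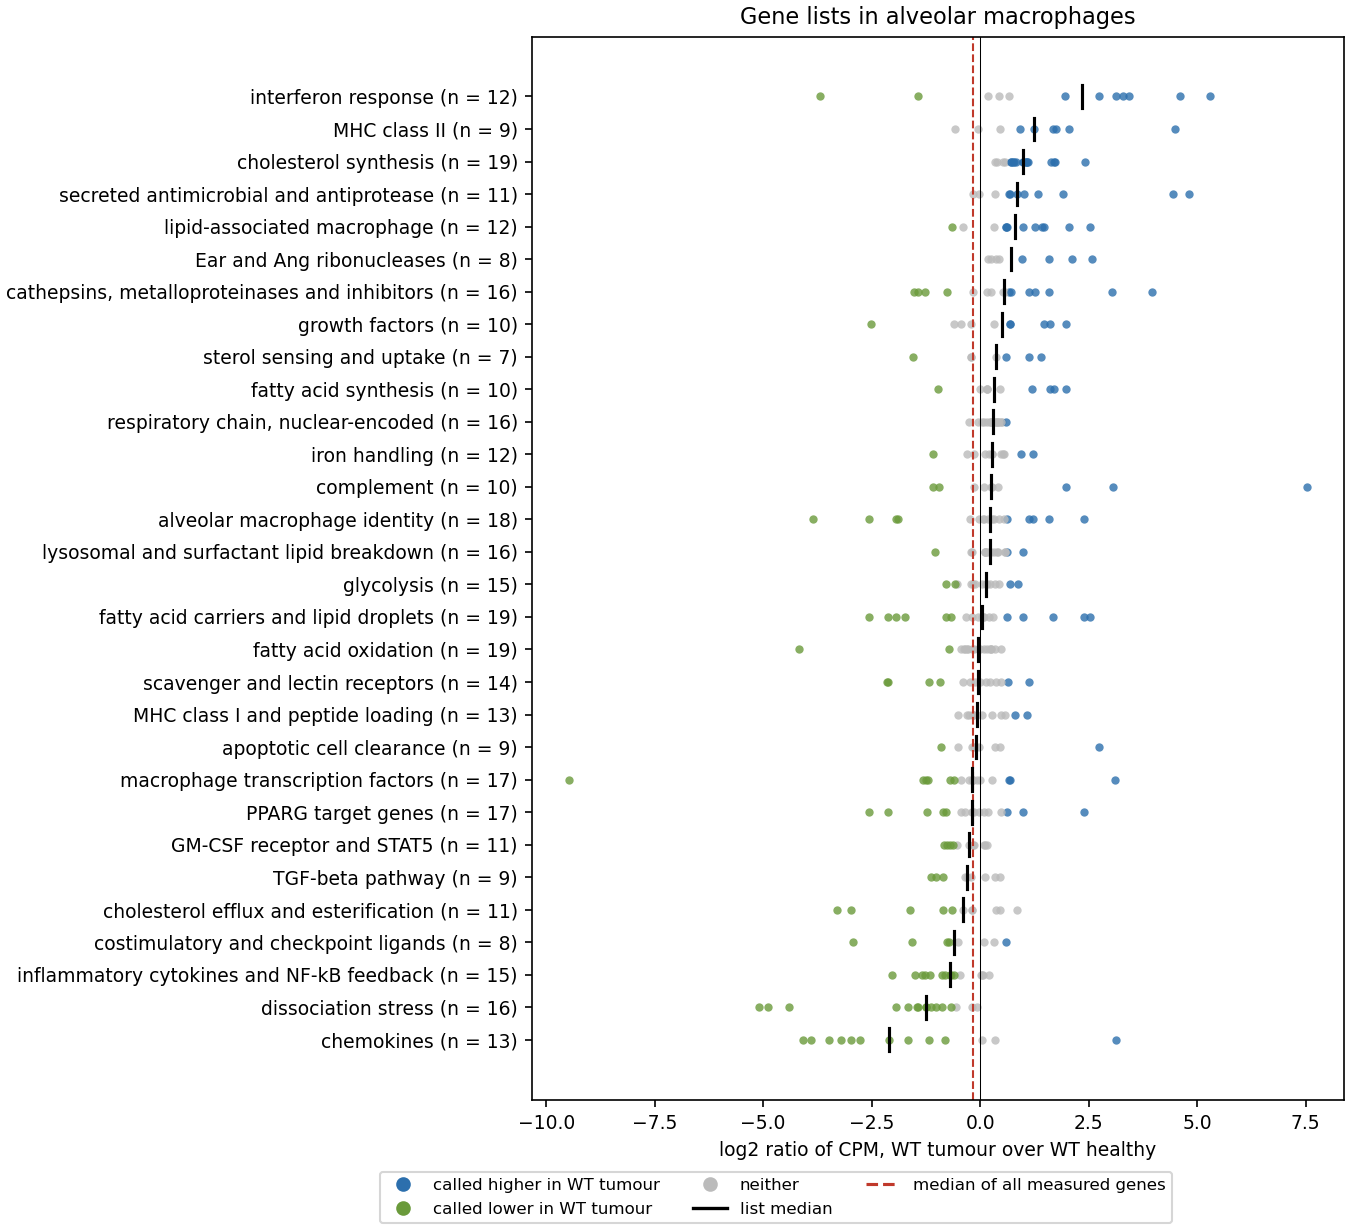
Each point is the log2 ratio of 1 gene in WT tumour over WT healthy alveolar macrophages, by gene list, with the list median marked and the median of all measured genes, -0.16, as a dashed line. Cholesterol synthesis lies at a median of 0.99 and MHC class II at 1.23, and the chemokines at -2.11.

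Secreted antimicrobial, antiprotease and ribonuclease genes were higher or not counted as different. The antimicrobial and antiprotease list had 8 of 11 genes higher and 0 lower, with a median of 0.85. Lyz2, the lysozyme of macrophages, was at 31805 CPM in WT tumour cells against 17616 CPM in WT healthy cells (0.85, 0.84 to 0.86). Lrg1, a secreted leucine-rich glycoprotein, was at 154 against 5.49 CPM (4.81, 4.31 to 5.36), and was found in 26.3% of thinned WT tumour cells and 0.679% of WT healthy ones. Wfdc17 and Wfdc21, small proteins of the antiprotease fold, were at 512 and 1207 CPM against 202 and 745 CPM. Chil3 itself was level, at a log2 ratio of -0.02. Among the Ear and Ang ribonucleases, 4 of 8 were higher and 0 lower. Ear10 was at 795 against 263 CPM (3.03-fold, log2 interval 1.52 to 1.68), whereas Ear1 and Ear2 were at log2 ratios of 0.43 and 0.17. Ear genes are near-identical copies on chromosome 14, so reads may have been split between them and their separate counts are uncertain.

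Ear10 also divided the cells of a library. In WT tumour it was found in 47.9% of thinned cells (42.9% to 52.9%) and in WT healthy in 19.9% (16.3% to 23.9%), with 3.49% and 0.728% in T cells. Across WT tumour cells it ranked with Ear1 at a Spearman correlation of 0.69 over 403 cells, and across WT healthy cells at 0.41 over 442 cells, in thinned counts that may share reads.

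Proteases, complement and growth factors differed in both directions. Timp2, an inhibitor of metalloproteinases, was at 224 CPM in WT tumour cells against 27.5 CPM in WT healthy cells (3.03, 2.79 to 3.27), and Mmp14, a membrane-bound metalloproteinase, at 31.0 against 2.00 CPM. The lysosomal proteases Ctsl, Ctss and Lgmn were at 490.0, 5363 and 345 CPM against 204, 3275 and 115 CPM. The metalloproteinases Mmp8, Mmp12 and Mmp19 were lower, the last at 50.2 against 144 CPM, so that 7 of the 16 genes were higher and 4 lower. Complement C4b (chromosome 17, 34728380 to 34743882, minus strand) had the highest ratio among the genes named, at 61.4 against 0.333 CPM (7.53, 5.67 to 10.6), the lower value from 2 UMIs. It had a UMI in 11.9% of thinned WT tumour cells and in 0 of 442 thinned WT healthy cells, where 3 cells would be 0.679%. Without thinning it had a UMI in 149 of 403 and 2 of 443 cells (37.0% and 0.451%). The C5a receptor gene C5ar1 was lower at 109 against 231 CPM. Of 10 complement genes 3 were higher and 2 lower, with a median of 0.25. Of 10 growth factors 5 were higher and 1 was lower, Inhba, which encodes a chain of activins, at 2.48 against 14.1 CPM (-2.51, -3.38 to -1.73), a gene with a UMI in 3.39% of unthinned WT healthy cells. Those higher included Igf1 at 80.3 against 26.1 CPM and Spp1, which encodes osteopontin, at 2117 against 769 CPM. Spp1 belongs with Gpnmb (661 against 245 CPM) and Cd63 (635 against 153 CPM) to the lipid-associated macrophage list, in which 9 of 12 genes were higher and 1, Apoe, was lower, at 15.5 against 24.5 CPM, with a median of 0.80. Without the limits on C1q and Ecm1 the log2 ratio of Apoe was 0.83, the other way.

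Chemokines were lower, in 10 of 13 measured genes, with 1 higher and a median of -2.11. Ccl9 was at 9.46 CPM in WT tumour cells against 141 CPM in WT healthy cells, Ccl3 at 43.3 against 186 CPM and the neutrophil attractant Cxcl2 at 59.2 against 406 CPM. Ccl6, the chemokine read in every chosen cell, was the exception by level, at 7615 against 6055 CPM. Inflammatory cytokine and NF-kB feedback genes were lower in 10 of 15, higher in 0, with Tnf at 9.15 against 37.3 CPM and Nfkbia, the NF-kB inhibitor, at 72.6 against 183 CPM. Genes of the response to tissue dissociation were lower alongside them, in 13 of 16 with a median of -1.24: Hspa1a was at 4.96 against 146 CPM, Egr1 at 5.43 against 114 CPM and Fos at 231 against 465 CPM. The part of these in the chemokine and cytokine levels was not tested. Interferon response genes were higher in 7 of 12 and lower in 2, but few cells carried them: in WT tumour 1 cell held 31.7% of the Ifit1 UMIs and 1 cell held 51.5% of the Rsad2 UMIs. Their median of 2.35 came to 0.10 at a mitochondrial limit of 5%.

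The lowest ratio among the genes named was that of a nuclear receptor. Esr1 (chromosome 10, 4611593 to 5005614, plus strand), the oestrogen receptor alpha gene, was at 0.155 CPM in WT tumour, from 1 UMI, against 110 CPM in WT healthy (-9.47, -14.8 to -6.98). It was at 0 UMIs in the PPARg-/- tumour cells. Sex and tumour cannot be told apart here, and Esr1 also stood at 1.16 CPM in WT tumour cells against 306 CPM in WT healthy cells in nonclassical monocytes. Of 17 macrophage transcription factors 3 were higher and 6 lower. Klf4 was at 359 against 223 CPM and Rxra, the partner of PPARγ, at 142 against 89.0 CPM. Egr2 and Cebpa, which act in alveolar macrophages, were lower at 54.6 and 149.9 CPM against 137 and 244 CPM. The GM-CSF and STAT5 list had 0 higher and 4 lower of 11, all of them downstream genes or Stat5b, among them Pim1 at 169.9 against 273 CPM. The TGF-beta list had 0 higher and 3 lower of 9, the feedback genes Smad7, Skil and Ski.

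Among genes named by the size of their ratio, on the higher side stood Cited4, a transcriptional cofactor (27.9 CPM in WT tumour cells against 0.333 CPM in WT healthy cells), Cdkn2a, the p16 and p19 cell cycle inhibitor gene (32.7 against 0.832 CPM), and Pdpn, the podoplanin gene (42.6 against 2.99 CPM). Ccn3 was at 21.6 CPM in WT tumour and 0 UMIs in WT healthy, at least 43.2-fold higher when a floor of 3 counts over the library is used. On the lower side were the potassium channel gene Kcnj15 (0.31 against 20.3 CPM), Pianp (0.62 against 26.0 CPM) and the caveolin gene Cav1 (3.26 against 48.1 CPM). Energy genes differed little: among 15 of glycolysis 2 were higher and 2 lower (median 0.12), and among 16 of the respiratory chain 1 was higher (0.30). Iron storage was near the fold but under it, with Fth1 at 17909.9 against 12270.3 CPM and a log2 ratio of 0.55, and Hmox1, which breaks down heme, was lower at 101 against 214 CPM. Scavenger and lectin receptors were 2 higher and 4 lower of 14, with the class A receptor gene Msr1 at 122 against 55.6 CPM. Of 9 genes for the clearance of dying cells, the bridging protein Mfge8 was higher (56.3 against 8.48 CPM) and Pros1 lower (105 against 197 CPM), while the receptors Axl and Mertk were level at log2 ratios of -0.15 and -0.03. Fatty acid synthesis had 4 of 10 higher, with Fasn at 34.4 against 11.3 CPM.

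Within a library the cells were spread unevenly over a few genes. The spread was taken as the variance over the mean of thinned UMIs, which is 1 where cells differ by counting alone. Leaving out the nuclear RNA Malat1 and the genes kept out of rankings, it was highest in WT tumour for Lyz2 (9.29), Fth1 (8.45), Ccl6 (5.28) and Chil3 (5.03). In WT healthy it was highest for the metallothionein gene Mt1 (20.3), then Cxcl2 (10.0), Mt2 (8.14) and Fth1 (7.92). At the same relative spread this measure rises with the level of a gene, so the ranking favours abundant genes. In WT tumour Lyz2 had a mean of 61.9 thinned UMIs, whereas Cxcl2 had a value of 3.06 at a mean of 0.117. Cxcl2 in WT healthy was carried by few cells, with a UMI in 19.2% of thinned cells and up to 174 UMIs in 1 cell. Class II genes went together across cells, with a Spearman correlation of Cd74 and H2-Aa of 0.68 in WT tumour and 0.71 in WT healthy. Marco and Siglecf, the genes of the rule, were at -0.07 in WT tumour and -0.14 in WT healthy, and choosing cells by the sum of 2 genes lowers their correlation. These are correlations across cells of 1 library, which share its depth and free RNA, and are given as descriptions.

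PPARg-/- tumour was then set over WT tumour, which compares the chosen cells of mice with Csf1rCre and floxed Pparg with those of floxed mice without Cre. Whether Cre had acted on the gene in the chosen cells was not tested. This comparison rested on 7 cells. It shares the WT tumour library with the first, so its values stand beside those above and are not counted against them. Of 9699 genes measured 327 were higher (3.37%) and 139 lower (1.43%), 4.8% in all. Among the few UMIs of these cells a higher gene could rest on 1 of them, and a lower gene needed a high level in WT tumour. A gene at 50 CPM came to about 5 UMIs in the 97602 of these cells. A gene without a UMI in them entered at the floor of 3 counts, 30.7 CPM, which lifts genes that are low in WT tumour, and the median log2 ratio of all 9699 genes was 0.30. Where at least 3 members allow it, a list is therefore given a second median, over members at a mean of 50 CPM or more over both libraries, a limit chosen after the data were seen. A gene can meet this limit through a high level in 1 library alone, so the second median also depends on the values compared. Of the 3132 genes at that level 185 were higher (5.91%) and 100 lower (3.19%), and their median was 0.05.

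The 7 cells held 6809 to 28091 UMIs each. Marco was at 120, 25, 10, 7, 6, 5 and 3 UMIs in them, and 1 cell thus gave 68.2% of its 176 UMIs. Siglecf was at 3 and 1 UMIs in 2 cells and at 0 in the other 5. Chil3 was at 43 to 184 UMIs a cell and Ear2 at 26 to 109, in all 7. Ear1 and Ear10 were read in 6 of 7, and both were at 0 in the same cell. Apoe, at 14223 CPM in the Ecm1 macrophages of that library and at 1512 CPM in its T cells, was at 61.5 CPM in the 7 cells, on 6 UMIs in all. Pla2g2d, a secreted phospholipase gene at 415 CPM in the Ecm1 macrophages, was at 10.2 CPM, on 1 UMI. The mannose receptor gene Mrc1 was at 1352 CPM against 482 CPM in the Ecm1 macrophages, a value near the 1246 CPM of WT tumour alveolar macrophages.

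Single carriers of fatty acids and genes of cholesterol synthesis were lower in the 7 cells, and 4 genes of fatty acid synthesis were higher on few UMIs. Fabp5 was at 1229 CPM in PPARg-/- tumour cells against 2913 CPM in WT tumour cells (-1.24, -1.52 to -0.99), and Fabp4 at 174 against 525 CPM (-1.59, -2.37 to -0.91). Per cell, Fabp5 was at 78, 19, 8, 6, 4, 4 and 1 UMIs, so 65.0% of its UMIs lay in 1 cell. Of the 19 measured carrier and droplet genes 5 were lower (Pnpla2, Fabp1, Fabp4, Fabp5 and Mgll) and 0 higher, but 12 of the 19 had a ratio above 1. The median was 0.26, near that of all genes, and -0.01 over the 11 at the higher level. PPARG target genes had 2 of 17 lower, Fabp4 and Mgll, and 0 higher, with medians of 0.10 over all and -0.07 over 13. Lpl was at 4477 against 3977 CPM and Abcg1 at 1373 against 931 CPM.

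For cholesterol synthesis 4 of 19 measured genes were lower and 0 higher, with a median of -0.81 and 3 ratios above 1. Over the 6 genes at the higher level the median was -1.13. Among the 4, Idi1 was at 10.2 CPM in PPARg-/- tumour cells against 94.7 CPM in WT tumour cells (-3.21, -8.52 to -0.73), Cyp51 at 20.5 against 89.2 CPM and Hmgcs1 at 51.2 against 140 CPM. These 3 rested on 1 to 5 UMIs in the 7 cells, and without the limit on Epcam and Cdh5, which leaves 17 cells, the list's median over all its measured members was -0.69. Mylip was higher at 174 against 27.8 CPM (2.65, 1.84 to 3.37) in 4 of 7 cells, 1 of 7 genes of sterol sensing and uptake, of which 2 were lower (median -0.76). Abca1 was at 553 against 17.8 CPM (4.96, 4.46 to 5.43), with 32, 9, 8, 3 and 2 UMIs in 5 cells, so that 1 cell held 59.3% of them. With Apoe it made up the 2 higher of 9 efflux and esterification genes, with 0 lower and medians of 0.56 over all and 0.30 over 6. Of 10 genes of fatty acid synthesis 4 were higher and 0 lower, with medians of 0.75 over all and 1.35 over 6. The desaturase gene Scd1 was at 113 against 11.5 CPM, the SREBP gene Srebf1 at 102 against 34.6 CPM and Scd2 at 113 against 48.4 CPM. The elongase gene Elovl5, at 123 CPM in PPARg-/- tumour cells, had a log2 ratio of 1.48. A single cell held 81.8% of the Scd1, 60.0% of the Srebf1, 45.5% of the Scd2 and 66.7% of the Elovl5 UMIs, and without the limit on Epcam and Cdh5 the list's median was -0.25, the other way. Of 19 genes of fatty acid oxidation 1 was higher, Acaa1b, at 133 against 20.3 CPM (2.71, 1.77 to 3.54) with 92.3% of its UMIs in 1 cell, and 0 were lower (medians 0.02 over all and -0.04 over 13).

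**Figure D5:**
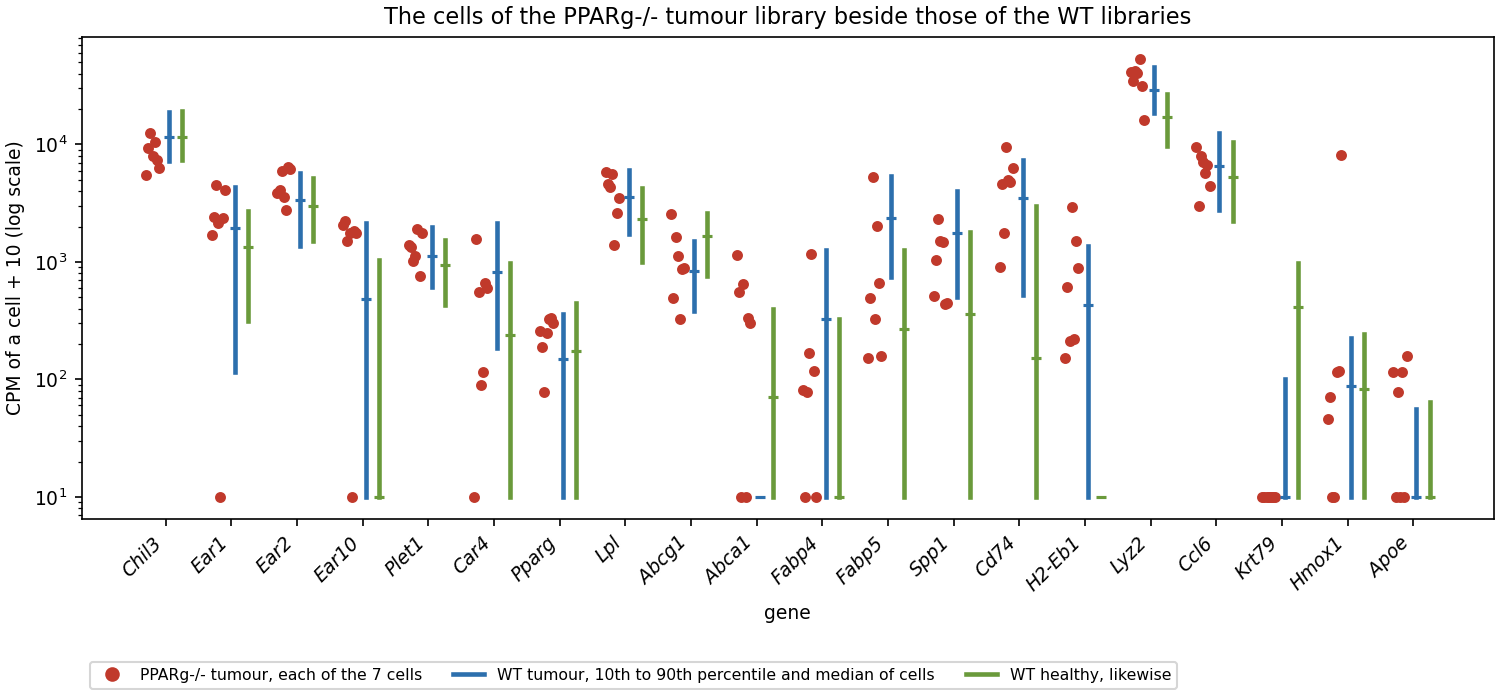
The CPM plus 10 (log axis) of 20 genes in each of the 7 PPARg-/- tumour alveolar macrophages, as points, beside the range between the 10th and 90th percentile of cells and the median in WT tumour and WT healthy. The Chil3 points run with both bars, the Krt79 points are all at 0 UMIs, and for Abca1 5 of the 7 points are above 0.

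Some ribonucleases and NF-kB feedback genes were higher in the 7 cells. Ear10 was at 1721 CPM against 795 CPM in WT tumour (1.11, 0.88 to 1.34), in 6 of 7 cells, and Rnase4 at 184 against 85.3 CPM in 4 of 7. Of 8 measured ribonuclease genes 3 were higher and 0 lower, with medians of 1.01 over all and 0.90 over 5. Nfkbia was at 287 against 72.6 CPM (1.98, 1.38 to 2.53) in 6 cells, and the interleukin-1 receptor antagonist gene Il1rn at 266 against 147 CPM in 6 cells. Both were uneven between the cells. After thinning, Nfkbia was found in 42.9% of the 7 cells, at a mean of 1.43 UMIs and up to 7 in 1 cell. Il1rn was found in 28.6% of them, with up to 5 UMIs in 1 cell. With Il1a, at 61.5 against 20.2 CPM, Nfkbia and Il1rn were the 3 higher of 15 inflammatory cytokine and NF-kB feedback genes (medians 0.46 over all and 0.26 over 8). The cytokine gene Il1b was lower, at 0 UMIs in the 7 cells against 51.6 CPM in WT tumour cells, and with cells admitted from 2 Marco and Siglecf UMIs its log2 ratio was 4.01, the other way. Zfp36, which encodes a protein that destabilises cytokine transcripts, was at 71.7 against 127 CPM and was not counted as different. Of 16 genes of the response to tissue dissociation, 3 were lower and 0 higher, with medians of -0.39 over all and -0.71 over 9: Jun was at 30.7 against 142 CPM, Fos at 61.5 against 231 CPM and Dusp1 at 30.7 against 103 CPM. Their part in the levels of the other genes was not tested. Of 9 MHC class II genes 2 were higher and 0 lower (medians 0.37 over all and 0.35 over 6), H2-DMb1 at 451 against 278 CPM and Ciita, the class II transactivator gene, at 61.5 against 21.2 CPM. Cd74 was at 3914 against 3723 CPM. H2-Eb1 was read in all 7 cells. Hmox1 was at 604 against 101 CPM, but 55 of its 59 UMIs came from 1 cell, and at a C1q limit of 1 UMI its log2 ratio was -1.20, the other way. Genes named by rank where no cell held over 20% of the UMIs were Zfp672 (51.2 against 13.2 CPM), Usp48 (102 against 41.1 CPM) and Prrc2c (359 against 237 CPM).

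Identity genes were counted in both directions. Of 18 measured members without the rule genes, 5 were lower (Fabp1, Fabp4, Car4, Atp6v0d2 and Chil3) and 2 higher (Ear10 and Krt19), with a median of 0.08 over all and over the 17 at the higher level. Krt19 was at 277 CPM in PPARg-/- tumour cells against 128 CPM in WT tumour cells (log2 ratio 1.11), in 6 of 7 cells. Car4 was at 471 CPM in PPARg-/- tumour cells against 974 CPM in WT tumour cells (-1.05, -1.50 to -0.63). Its UMIs per cell were 26, 8, 6, 4, 1, 1 and 0, so that 56.5% lay in 1 cell. Chil3 was at 8227 against 12439 CPM (-0.60, -0.70 to -0.50) and Atp6v0d2, a proton pump subunit gene, at 697 against 1374 CPM. Of 15 genes of lysosomal lipid breakdown 2 were lower, Lipa at 625 against 1115 CPM and Gla at 10.2 against 62.5 CPM, and 0 higher, with a median of -0.06 over all and over 13. Krt79 was at 0 UMIs in all 7 cells, where the floor of 3 counts is 30.7 CPM, against 32.3 CPM in WT tumour, so a difference was not detectable at this depth. The intervals of Plet1, Itgax, Mrc1 and Bhlhe41 held a ratio of 1. The lipid-associated list had 6 of 12 lower and 1 higher, Apoe, with medians of -0.52 over all and -0.71 over 11. Gpnmb was at 307 against 661 CPM and Spp1 at 1076 against 2117 CPM. The secreted list had 4 of 10 lower (Lrg1, Slpi, Wfdc17 and Chil3) and 0 higher, with medians of -0.43 over all and -0.58 over 9, and Lrg1 was at 51.2 against 154 CPM. Fth1 was at 10481 against 17909.9 CPM (-0.77, -0.86 to -0.68). Fn1, the fibronectin gene, was at 41.0 against 314 CPM, Rgs1 at 20.5 against 157 CPM and Marcks at 10.2 against 68.5 CPM. Without the limits on C1q and Ecm1 the log2 ratios of Fn1, Rgs1, Spp1 and Cd63 were 0.87, 0.66, 0.63 and 0.30, the other way, as were those of Slpi (0.70), Wfdc17 (0.54) and the cathepsin gene Ctsl (0.0070). In that setting the lipid-associated median was -0.01 and the secreted median -0.19. Of 12 genes of iron handling 3 were higher and 1, Fth1, was lower (medians 0.53 over all and 0.07 over 7). Lists of the GM-CSF and STAT5 pathway, TGF-beta, transcription factors, complement, MHC class I, the clearance of dying cells, glycolysis and the respiratory chain had 0 genes higher and 0 lower at this depth, with medians between -0.25 and 0.12. Of 16 cathepsins, metalloproteinases and inhibitors 2 were lower, Ctsl and Ctss, and 0 higher (medians -0.05 over all and -0.11 over 15). Of 13 scavenger and lectin receptor genes Clec4n was lower and 0 were higher (medians 0.05 over all and 0.01 over 10), and of 9 growth factors Igf1 was higher and Spp1 lower (medians -0.23 over all and -0.35 over 3). Chemokines, interferon response genes and ligands that steer T cells had 0 higher and 0 lower, with medians of 0.13 over 8, 0.93 over 11 and 0.80 over 8, the last -0.47 over the 4 at the higher level.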

How the data were processed

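Single-cell RNA was measured in 3 libraries, and the deposited files hold raw counts of UMIs per gene and barcode, made with Cell Ranger against mm10 per the file headers and the submitters' processing notes, which name Cell Ranger 6.0.1 and Seurat 4.0.1 whereas a header names Cell Ranger 4. The counts are not normalized. Alignment settings were not found in the labels or headers. Reads of near-identical genes may be split or lost by such counting, and the 3′ kit reads only transcript ends.

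Cells had at least 1000 UMIs, 500 genes and at most 10% mitochondrial UMIs. The rule and gates were applied to raw counts, with no clustering. UMIs were summed over the chosen cells of a library and divided by their total (CPM). Ratios carry a 95% exact (Clopper-Pearson) interval from the conditional binomial. Against 0 UMIs a floor of 3 counts was used. Shares of cells used cells thinned to 2000 UMIs, with T cells of the library as background. Ratios and calls were first run on simulated counts with Poisson scatter, the scatter that the intervals assume. Those runs did not hold the uneven spread between cells, so they do not show how the calls fare under it. Python 3.11.15, numpy 2.4.6, scipy 1.17.1, pandas 2.3.3 and scanpy 1.11.5 (with Scrublet) were used.

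The 30 gene lists and the members were chosen with earlier results of these data known. Named genes were the markers, Pparg and the receptors, the 10 highest and lowest ratios among called genes with at least 50 UMIs, 20 CPM in 1 library and no cell holding over 20% of the UMIs of the higher library, and from each list the 2 highest and 2 lowest members and those at 500 CPM. Other genes were named after their values were seen. Clec7a and Mx1 were not analysed here, and a few list members are not reported here. The depth of the 7 PPARg-/- tumour cells, 97602 UMIs, limits that comparison most.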

Additional observations from a re-analysis of the deposited data

How the results depend on the processing

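Each comparison was recomputed under other limits on cells, scalings and thresholds, and 1 choice was changed at a time. No paired analysis was possible because each group is 1 library, and for that reason none could be left out. The counts of genes over WT healthy, 711 higher and 1620 lower, came to 416 and 754 with cells thinned to 2000 UMIs, to 404 and 688 at 2-fold, and to 1033 and 1027 when scaled by the median of gene ratios. Over WT tumour, 327 higher and 139 lower came to 84 and 18 with thinning. The lower count was 88 at 2-fold, 225 with no C1q or Ecm1 limit and 228 with no Epcam or Cdh5 limit, an alternative chosen after seeing the data. Fewer UMIs and a stricter fold leave fewer genes by construction; for the other settings the cause was not tested. PPARg-/- tumour cells meeting the rule numbered 13 at a minimum of 2 Marco and Siglecf UMIs, 17 with no Epcam or Cdh5 limit and 1 at a mitochondrial limit of 5%, where WT tumour had 79 and WT healthy 106. Directions reversed for 11 log2 ratios of genes and 2 list medians, causes not tested. With no C1q or Ecm1 limit Apoe was 0.83 in WT tumour over WT healthy, and in PPARg-/- tumour over WT tumour Slpi was 0.70, Wfdc17 0.54, Spp1 0.63, Ctsl 0.0070, Cd63 0.30, Fn1 0.87 and Rgs1 0.66. In the same comparison Il1b was 4.01 at a minimum of 2 Marco and Siglecf UMIs, Hmox1 -1.20 at a C1q limit of 1 UMI and Evi2a 0.18 with no Epcam or Cdh5 limit. The median of fatty acid synthesis was -0.25 with no Epcam or Cdh5 limit, against 0.75, and that of ligands that steer T cells was -0.47 over members at a mean of 50 CPM, against 0.80. List medians were set beside an interval of the main median, taken from the ranked ratios of its members. In WT tumour over WT healthy, 445 values lay within it and 5 did not. In PPARg-/- tumour over WT tumour 414 lay within it, 1 did not, and 2 were the reversed medians above. That comparison gave no list medians at the 5% limit or with thinning, where under 50000 UMIs remained.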
